A study of Mus musculus with 9 samples.

Results

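NF-κB is a family of dimeric transcription factors, and 10 genes of its pathway were followed at the transcript level in 4T1 cells, a mouse mammary carcinoma line without estrogen, progesterone or HER2 receptors. The genes were chosen by name, with earlier results of these data known. All 10 were among the 24421 genes of the count table. They comprise the 5 subunit genes Nfkb1, Nfkb2, Rel, Rela and Relb, the 3 inhibitor and feedback genes Nfkbia, Nfkbiz and Tnfaip3, and 2 target genes, Tnfaip2 and Icam1, which are induced by NF-κB in many cell types but do not feed back on it. RNA was sequenced from 3 groups of 3 libraries each, all after 5 days of culture. The first group was grown as spheroids on soft agar (3D) with the albumin carrier but no palmitate added, the second as the same spheroids with 75 µM palmitate, and the third as monolayers on plastic (2D) with 75 µM palmitate. No 2D culture without palmitate was analysed here, so palmitate was compared in 3D only and culture form with palmitate only. The medium held serum in all groups, so "no palmitate" means none added. The labels do not say whether the 3 libraries of a group came from separate cultures, and the p-values then measure the spread between these libraries, which may be technical.

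In resting cells, NF-κB dimers are held in the cytoplasm by IκB proteins. In the canonical pathway, signals from cytokine and Toll-like receptors lead to the breakdown of IκBα and free dimers of p65 (Rela) or c-Rel (Rel) with p50 (from Nfkb1), whereas the slower non-canonical pathway processes the Nfkb2 product p100 to p52, which pairs with RelB. Some of these genes are themselves NF-κB targets, Nfkbia, Tnfaip3, Nfkb2 and Relb among them, and such transcripts are often read as a record of the pathway's activity. The activity of p65 is mostly set by its location and by modifications such as acetylation, which RNA does not show.

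The promoters of 4 of the genes whose transcripts differed between 3D and 2D cultures are given, Nfkb2, Nfkbia and Tnfaip3 lower and Tnfaip2 higher in 3D. Icam1 was lower in 3D as well and has a window, which is not written out. The windows come from RefSeq on GRCm38.p6 and run from 250 bases before to 50 bases after an annotated start. They lie at chr19:46304487-46304786 on the + strand for Nfkb2 (the first of its 3 windows), chr12:55492598-55492897 on the - strand for Nfkbia, chr10:19015361-19015660 on the - strand for Tnfaip3 (the first of its 2 windows) and chr12:111442411-111442710 on the + strand for Tnfaip2. Each is written in the direction of its gene, and the capitals mark matches to the consensus kappa-B motif of 10 bases, searched on both strands.
Nfkb2: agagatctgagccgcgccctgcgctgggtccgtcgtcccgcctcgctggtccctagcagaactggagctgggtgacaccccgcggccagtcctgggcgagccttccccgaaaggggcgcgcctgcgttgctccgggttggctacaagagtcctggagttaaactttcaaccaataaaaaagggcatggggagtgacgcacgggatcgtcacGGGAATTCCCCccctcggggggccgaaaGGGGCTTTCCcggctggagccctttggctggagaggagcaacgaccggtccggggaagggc
Nfkbia: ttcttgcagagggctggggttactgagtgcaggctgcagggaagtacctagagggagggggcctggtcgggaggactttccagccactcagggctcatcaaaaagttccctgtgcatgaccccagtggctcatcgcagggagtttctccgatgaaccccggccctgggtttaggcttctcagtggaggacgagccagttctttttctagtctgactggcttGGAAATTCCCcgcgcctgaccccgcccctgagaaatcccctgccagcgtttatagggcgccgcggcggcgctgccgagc
Tnfaip3: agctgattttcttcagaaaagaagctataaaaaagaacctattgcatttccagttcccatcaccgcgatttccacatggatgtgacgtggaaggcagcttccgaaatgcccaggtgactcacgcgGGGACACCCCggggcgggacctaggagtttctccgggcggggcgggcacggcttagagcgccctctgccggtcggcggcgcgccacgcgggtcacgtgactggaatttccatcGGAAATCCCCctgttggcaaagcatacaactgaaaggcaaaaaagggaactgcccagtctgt
Tnfaip2: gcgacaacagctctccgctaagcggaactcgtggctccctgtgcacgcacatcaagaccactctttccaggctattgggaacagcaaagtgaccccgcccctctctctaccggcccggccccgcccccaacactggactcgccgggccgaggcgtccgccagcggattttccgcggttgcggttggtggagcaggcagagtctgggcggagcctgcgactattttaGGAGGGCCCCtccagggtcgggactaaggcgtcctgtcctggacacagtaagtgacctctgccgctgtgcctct
A match was present in at least 1 window of 5 of the 7 genes with a RefSeq window, namely Nfkb2, Rel, Nfkbia, Tnfaip3 and Tnfaip2, and in 7 of the 10 windows of these genes. Among all 32851 RefSeq promoter windows 8.46% held a match, and 9.55% of genes had one in any of their windows. The first capitals in the Nfkb2 window hold 2 overlapping matches, of which GGGAATTCCC begins at -39 from the start and reads as a match on both strands. In Nfkbia the match GGAAATTCCC begins at -29, and in Tnfaip3 the matches begin at -125 and -12. The Tnfaip2 match GGAGGGCCCC begins at -24. The windows of Rela and Icam1 held no match, which says only that these letters are not in this window. Each window written out above holds a match, whereas that of Icam1, which also differed between 3D and 2D, does not. A match is a stretch of letters, and binding was not measured.

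Total counts per library lay between 6595514 (3D palmitate, replicate 3) and 31177756, and 12575 genes, among them all 10 of the pathway genes described here, passed the filter on low counts. Levels are given as CPM (reads of a gene scaled to a common library size, here with TMM factors), and differences as log2 fold changes from a single edgeR quasi-likelihood fit to all 9 libraries, called at a Benjamini-Hochberg adjusted p under 0.05. The 3D palmitate libraries spread more than the others, with a median within-group SD of log2 CPM over all genes of 0.147 against 0.0800 in 3D without palmitate and 0.0866 in 2D. Of 7 epithelial markers of the labelled cells 6 passed the filter (among them Krt8 at 980.3 to 1476 CPM and Epcam at 263 to 823 CPM as group means), and Krt5 had at most 1 count. Their sum was 4515 to 4681 CPM in 3D and 3215 to 3436 CPM in 2D. Of 8 leukocyte markers only Cd68 passed the filter, Adgre1 and Cd3e were at 0 and Ptprc had at most 11 counts. The summed leukocyte markers, nearly all Cd68, were lower in 3D, at 7.17 to 9.02 CPM in 3D without palmitate, 8.88 to 11.6 CPM in 3D with palmitate and 24.6 to 28.0 CPM in 2D. Of 6 fibroblast markers Pdgfra and Col1a1 passed the filter, and the list, nearly all Pdgfra, summed to 91.8 to 111 CPM in 3D and 31.7 to 33.7 CPM in 2D. Col1a1 was at group means of 0.845 and 1.0 CPM in 3D and 2.18 CPM in 2D. The 4 endothelial markers did not pass it. The epithelial sum, Cd68 and Pdgfra thus moved with culture form, and their part in the differences between 3D and 2D was not tested. In bulk RNA, fewer cells expressing a gene and less of its RNA per cell cannot be told apart.

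Between 3D and 2D cultures that both received palmitate, 7 of the 10 genes differed. Nfkb1 (p105/p50) and Tnfaip2 were higher in 3D, and Nfkb2, Relb, Nfkbia, Tnfaip3 and Icam1 were lower. Over all genes tested 68.3% were called in this comparison, 34.5% higher and 33.9% lower in 3D, so the number of these genes that differed is close to that background. The libraries did not overlap for 8 of the 10 genes, against 69.4% of all genes. The median log2 fold change of the 10 genes was -0.23, and that of all genes 0.01.

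**Figure D1:**
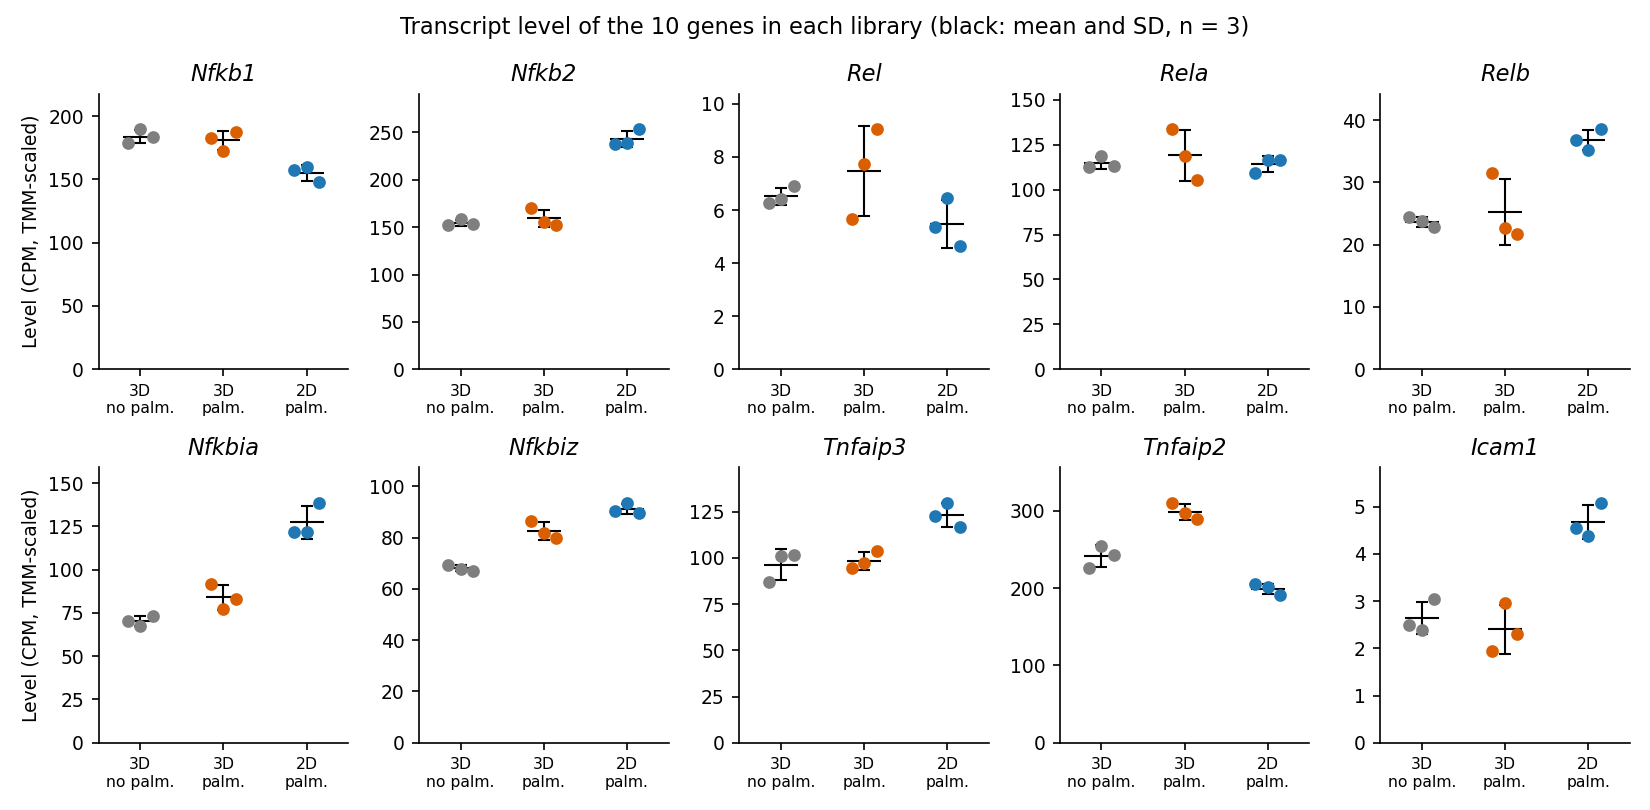
Level of each of the 10 genes in CPM (y axis, from 0) in the 9 libraries (colored points), by condition on the x axis (3D without palmitate, 3D with palmitate, 2D with palmitate), with the mean and SD of 3 libraries in black. Nfkb2, Relb, Nfkbia, Nfkbiz, Tnfaip3 and Icam1 lie higher in all 3 of the 2D libraries than in any 3D library, and Tnfaip2 has its highest 3 values in 3D with palmitate.

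Among the subunits, Nfkb2 showed the clearest difference. It lies on chromosome 19 of GRCm38 from 46304320 to 46312385 and encodes p100, the precursor of the non-canonical p52. Its level was 152.5, 158 and 154 CPM in the 3D cultures without palmitate, 170.0, 156 and 152 CPM in those with it, and 238, 239 and 253 CPM in 2D. Every 2D library lay above every 3D library, and the 3D groups overlapped. Against 2D, the 3D palmitate cultures were 1.52-fold lower (log2 fold change -0.61, SE 0.0623, adjusted p = 7.35e-07 in edgeR's test). Nfkb2 shares 299 exon bases with Psd and 531 with the noncoding gene AC114539.1, both on the opposite strand, and the strand setting of the counting is not given in the sources used here. Psd itself stood at 9.80 to 22.3 CPM over the 9 libraries.

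Relb, whose product is the partner of p52, lies on chromosome 7 from 19606217 to 19629438. Its level was 24.4, 23.8 and 22.8 CPM in 3D without palmitate, 31.4, 22.6 and 21.7 CPM in 3D with palmitate, and 36.8, 35.2 and 38.5 CPM in 2D. Replicate 1 of the 3D palmitate cultures stood above the other 5 libraries grown in 3D, yet below all 3 grown in 2D. Relb was lower in 3D than in 2D by a log2 fold change of -0.49 (SE 0.112, adjusted p = 0.00123 in edgeR's test), and of -0.72 without that library. Over the 6 fits that left out 1 library the value lay between -0.72 and -0.41 (adjusted p at most 0.00993 in edgeR's test).

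Nfkb1 lies on chromosome 3 from 135584655 to 135691547 and encodes p105, the precursor of p50. It was at 179, 189 and 184 CPM in 3D without palmitate, 183, 173 and 187 CPM in 3D with palmitate, and 158, 160.1 and 148 CPM in 2D. The 2D libraries lay below all of the 3D libraries, opposite to Nfkb2. In 3D palmitate it was higher by a log2 fold change of 0.22 (SE 0.0611, adjusted p = 0.00530 in edgeR's test). This call was lost in a fit that removed, library by library, the dependence of counts on the GC content and length of transcripts, with a log2 fold change of 0.03 and an adjusted p of 0.518 in edgeR's test.

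Rela, the gene of p65, lies on chromosome 19 from 5637483 to 5648130. It stood at 112, 119 and 113 CPM in 3D without palmitate, 133, 119 and 105 CPM in 3D with palmitate, and 109, 117 and 117 CPM in 2D. All 3 groups overlapped. Between 3D and 2D the log2 fold change was 0.07 with a 95% interval from -0.10 to 0.24 (adjusted p = 0.433 in edgeR's test), so a change of the size seen for Nfkb2 lay outside the interval. The 3D palmitate libraries bounded the range of Rela from both sides. Within that group its SD of log2 CPM was 0.172, and 0.0148 once this GC and length trend was removed. For Relb the same values were 0.290 and 0.131. In the same group the SD also fell for Rel, Nfkbia and Tnfaip3. It rose for Nfkb1 (0.0599 to 0.0746), Nfkb2, Nfkbiz, Tnfaip2 and Icam1 (0.291 to 0.344).

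Rel, the gene of c-Rel, which is known mainly from lymphoid cells, lies on chromosome 11 from 23736847 to 23770970 and had few reads, with 59 to 201 counts per library. Its levels were 6.28, 6.40 and 6.89 CPM in 3D without palmitate, 5.67, 7.75 and 9.04 CPM in 3D with palmitate, and 5.38, 6.44 and 4.63 CPM in 2D. The groups overlapped, and 3D differed from 2D by 0.34 on the log2 scale, with a 95% interval from -0.03 to 0.71 (adjusted p = 0.0935 in edgeR's test). Its direction was not settled by these libraries. Without replicate 1 of 3D palmitate the value was 0.56 (adjusted p = 0.00710) and without replicate 2 of 2D it was 0.51 (adjusted p = 0.0327), both in edgeR's test, whereas removal of the GC and length trend turned it to -0.02. The SD of its log2 CPM within 3D palmitate was 0.338, and 0.182 with the trend removed.

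Levels of different genes were compared per kb of the longest annotated transcript. On that scale Nfkb1, Nfkb2 and Rela were of similar abundance in 3D without palmitate, at 44.7, 40.3 and 42.3 CPM per kb, Relb stood at 10.7 and Rel at 0.874 CPM per kb. Of the summed subunit transcripts, Nfkb2 made up 29.0% ± 0.10 (SD, n = 3) in 3D without palmitate, 29.2% ± 0.280 (SD, n = 3) in 3D with palmitate and 39.4% ± 0.904 (SD, n = 3) in 2D. The share of Nfkb1 ran the other way, at 32.2% ± 0.314 (SD, n = 3), 31.1% ± 2.36 (SD, n = 3) and 23.5% ± 1.22 (SD, n = 3) in the same order. Nfkb2 was thus the most abundant subunit transcript in 2D, at 1.60 to 1.83 times the level of Nfkb1 per kb in single libraries, whereas in the 6 libraries grown in 3D this ratio was 0.872 to 0.994. Rela held 30.5%, 30.9% and 26.2% of the sum in the 3 groups as means, Relb 7.72%, 8.02% and 10.4%, and Rel 0.630%, 0.716% and 0.458%. The sum of all subunits was 139 ± 3.30, 142 ± 9.69 and 160.5 ± 2.55 CPM per kb (SD, n = 3 each). No test was made on these shares. The order between genes depends on the transcript used for the length: with the shortest coding transcript Rela led with 61.2% to 66.3% as group means, while Nfkb2 still had its larger share in 2D, with 15.9% against 10.8% in both 3D groups.

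**Figure D2:**
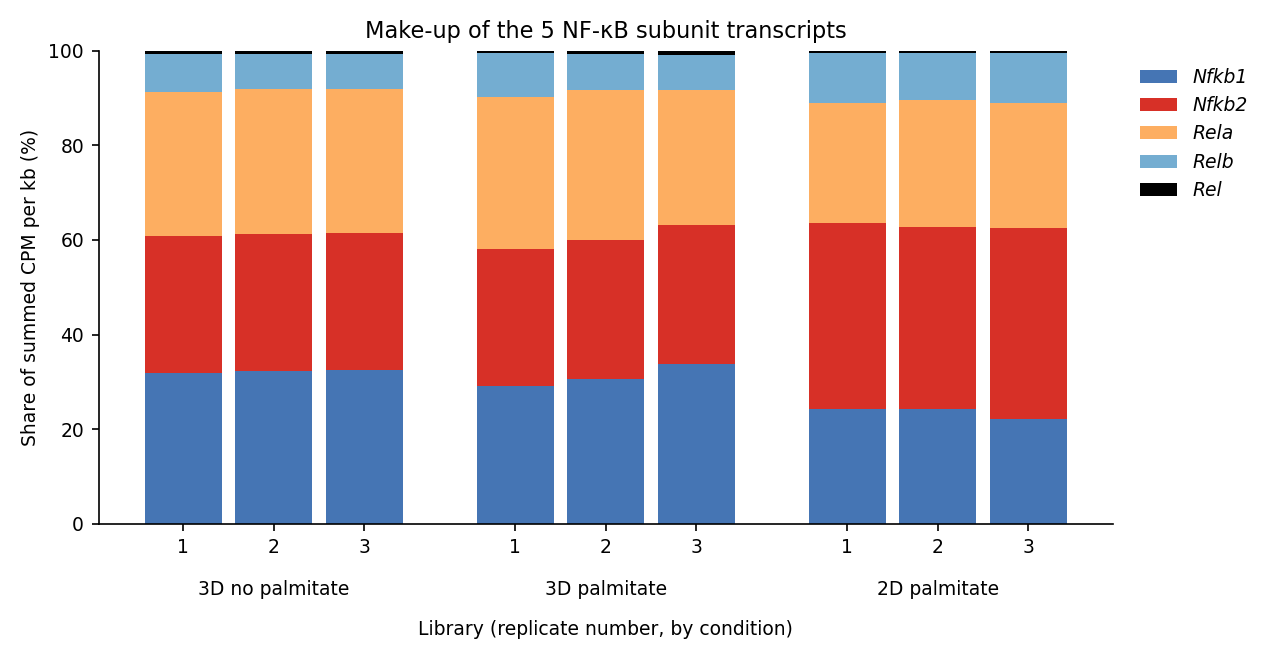
Share of each of the 5 subunit genes in the summed CPM per kb of the subunits (y axis, percent), 1 stacked bar for each of the 9 libraries (x axis, replicate number within condition). Nfkb2 takes 38.7% to 40.4% in the 2D libraries and 28.9% to 29.4% in the 6 libraries grown in 3D.

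Nfkbia encodes IκBα, the inhibitor that is degraded on stimulation and resynthesized as the pathway's fastest feedback. It lies on chromosome 12 from 55489410 to 55492647. Its level was 70.5, 67.7 and 73.3 CPM in 3D without palmitate, 91.4, 77.1 and 83.2 CPM in 3D with palmitate, and 122, 122 and 138 CPM in 2D. None of the 3 groups overlapped. With palmitate in both, Nfkbia was 1.51-fold lower in 3D than in 2D (log2 fold change -0.60, SE 0.0769, adjusted p = 7.69e-06 in edgeR's test). Relative to Rela, whose protein IκBα binds, and per kb of both transcripts, the level of Nfkbia was 1.06 ± 0.0689, 1.22 ± 0.127 and 1.92 ± 0.125 times as high in 3D without palmitate, 3D with palmitate and 2D (SD, n = 3 each).

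Tnfaip3 encodes the ubiquitin-editing enzyme A20, which switches off signaling upstream of the IκB kinase. It lies on chromosome 10 from 19000910 to 19015657, and stood at 86.9, 101 and 101 CPM in 3D without palmitate, 94.3, 97.4 and 104 CPM in 3D with palmitate, and 123, 130 and 117 CPM in 2D. The 2D libraries lay above all 6 of the others. In 3D palmitate Tnfaip3 was lower by a log2 fold change of -0.33 (SE 0.0741, adjusted p = 0.00118 in edgeR's test), and of -0.54 after removal of the GC and length trend.

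Nfkbiz encodes IκBζ, an atypical nuclear IκB that helps to switch on a subset of NF-κB targets. It lies on chromosome 16 from 55811375 to 55838899, and its level was 69.4, 67.7 and 67.0 CPM in 3D without palmitate, 86.5, 81.6 and 79.6 CPM in 3D with palmitate, and 90.4, 93.5 and 89.5 CPM in 2D. The 3 groups were fully separated, in that order. Of the 10 genes it was the 1 with separated 3D and 2D palmitate libraries that was not called, with a log2 fold change of -0.14 (SE 0.0596, adjusted p = 0.0524 in edgeR's test). Library size scaling, removal of the GC and length trend and leaving out replicate 1 of 3D palmitate each brought it under the threshold, with log2 fold changes of -0.15, -0.31 and -0.18 (adjusted p = 0.0463, 1.64e-05 and 0.0231 in edgeR's test).

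The target genes moved in opposite directions. Tnfaip2, named for its induction by TNF and known for shaping membrane protrusions, lies on chromosome 12 from 111442469 to 111455018. It was the most abundant of the 10 genes per kb in the 3D groups, at 64.2 and 79.5 CPM per kb, while in 2D, at 53.0 CPM per kb, it came after Nfkbia and Nfkb2. Its level was 226, 255 and 243 CPM in 3D without palmitate, 310.3, 297 and 289 CPM in 3D with palmitate, and 205, 201 and 192 CPM in 2D. The groups did not overlap. Tnfaip2 was higher in 3D than in 2D with palmitate by a log2 fold change of 0.59 (SE 0.0633, adjusted p = 1.24e-06 in edgeR's test). The annotation places the antisense transcript Gm40578 over 314 of its exon bases.

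Icam1, the adhesion molecule that leukocytes bind on inflamed tissue, lies on chromosome 9 from 21015985 to 21028817. It was barely expressed, with 15 to 137 counts per library. Its level was 2.50, 2.39 and 3.04 CPM in 3D without palmitate, 1.95, 2.96 and 2.30 CPM in 3D with palmitate, and 4.55, 4.39 and 5.08 CPM in 2D. The 2D libraries were the highest 3 of the 9. Icam1 was 2.01-fold lower in 3D palmitate than in 2D (log2 fold change -1.0, SE 0.184, adjusted p = 0.000208 in edgeR's test), the widest difference among the 10 genes. The antisense transcript Gm47079 covers 511 of its exon bases. For a single gene an exact two-sided permutation test of 3 libraries against 3 cannot give a p below 0.1, the value it gave for each of the 8 genes without overlap.

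**Figure D3:**
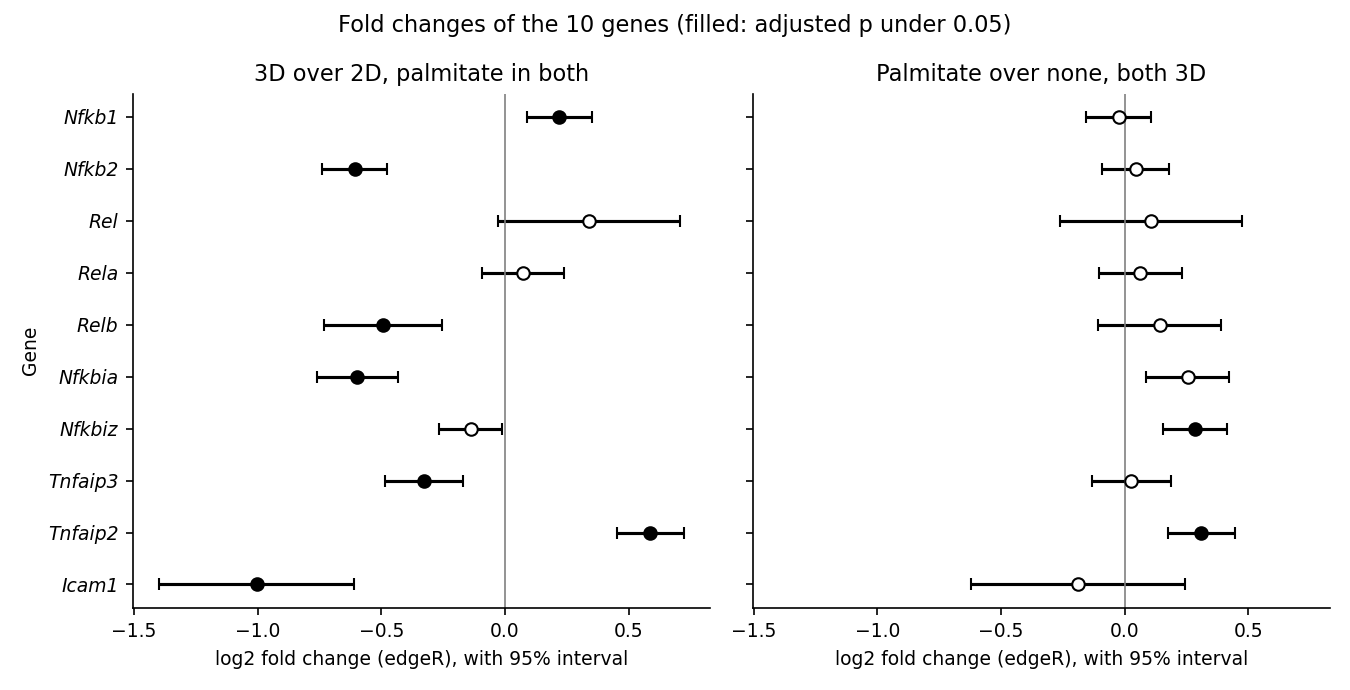
Log2 fold change with its 95% interval (x axis) of each gene (y axis), for 3D over 2D with palmitate in both (left) and for palmitate over no palmitate in 3D (right), with filled points for an adjusted p under 0.05. On the left 7 points are filled and span -1.0 to 0.59, and on the right only Nfkbiz at 0.28 and Tnfaip2 at 0.31 are.

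Palmitate within 3D culture went with smaller differences, higher Nfkbiz and Tnfaip2 and no call for the other 8 genes. The 3D palmitate libraries also served in the comparison with 2D, so the values of both comparisons are not independent. Of all genes tested 2.19% were called, 1.38% higher and 0.811% lower with palmitate, against 2 of the 10 genes, both higher. The 10 genes were chosen with earlier results of these data known, so such counts describe them and do not test them against all genes. The libraries did not overlap for Nfkbia, Nfkbiz and Tnfaip2, where 18.6% of all genes had no overlap. By sign, 8 of the 10 genes were higher with palmitate and their median log2 fold change was 0.09, while 52.2% of all genes were higher with a median of 0.01. That count of 8 was 6 to 9 over the 15 alternative fits. DESeq2 called the same 2 genes, and at an unadjusted p under 0.05 the count was 3 in edgeR's test, with Nfkbia added, where 17.3% of all genes passed.

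Nfkbiz rose 1.22-fold with palmitate, from a mean of 68.0 ± 1.25 CPM to 82.6 ± 3.51 CPM (SD, n = 3 each). Its log2 fold change was 0.28 (SE 0.0604, adjusted p = 0.0274 in edgeR's test). Tnfaip2 rose 1.24-fold, from 242 ± 14.2 CPM to 299 ± 10.5 CPM (SD, n = 3 each), with a log2 fold change of 0.31 (SE 0.0631, adjusted p = 0.0232 in edgeR's test). For both genes every library with palmitate lay above every library without it. Nfkbia, which was as cleanly separated, had a log2 fold change of 0.26 (SE 0.0782, adjusted p = 0.108 in edgeR's test).

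The directions held in each of the 15 alternative fits, between 0.24 and 0.31 for Nfkbiz and between 0.26 and 0.35 for Tnfaip2, but the calls did not. Nfkbiz kept its call in 6 and Tnfaip2 in 7 of them. Both calls were lost in the fits without replicate 1, 2 or 3 of 3D no palmitate and without replicate 1 or 2 of 3D palmitate, with adjusted p-values from edgeR of 0.0751 to 0.131 for Nfkbiz and 0.0504 to 0.117 for Tnfaip2. Without replicate 3 of 3D palmitate, the library with the lowest total, both calls stood, with adjusted p-values of 0.00342 and 0.00214, and Nfkbia was called as well with a log2 fold change of 0.26 and an adjusted p of 0.0317 in edgeR's test. With only the 2 groups in the fit the adjusted p-values of Nfkbiz and Tnfaip2 were 0.105 and 0.0889, and with the share of the ribosomal RNA precursor Rn45s as a covariate they were 0.179 and 0.165. Library size scaling took Nfkbiz to 0.0536. Removing the GC and length trend left both called, at 0.00204 and 0.00143.

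**Figure D4:**
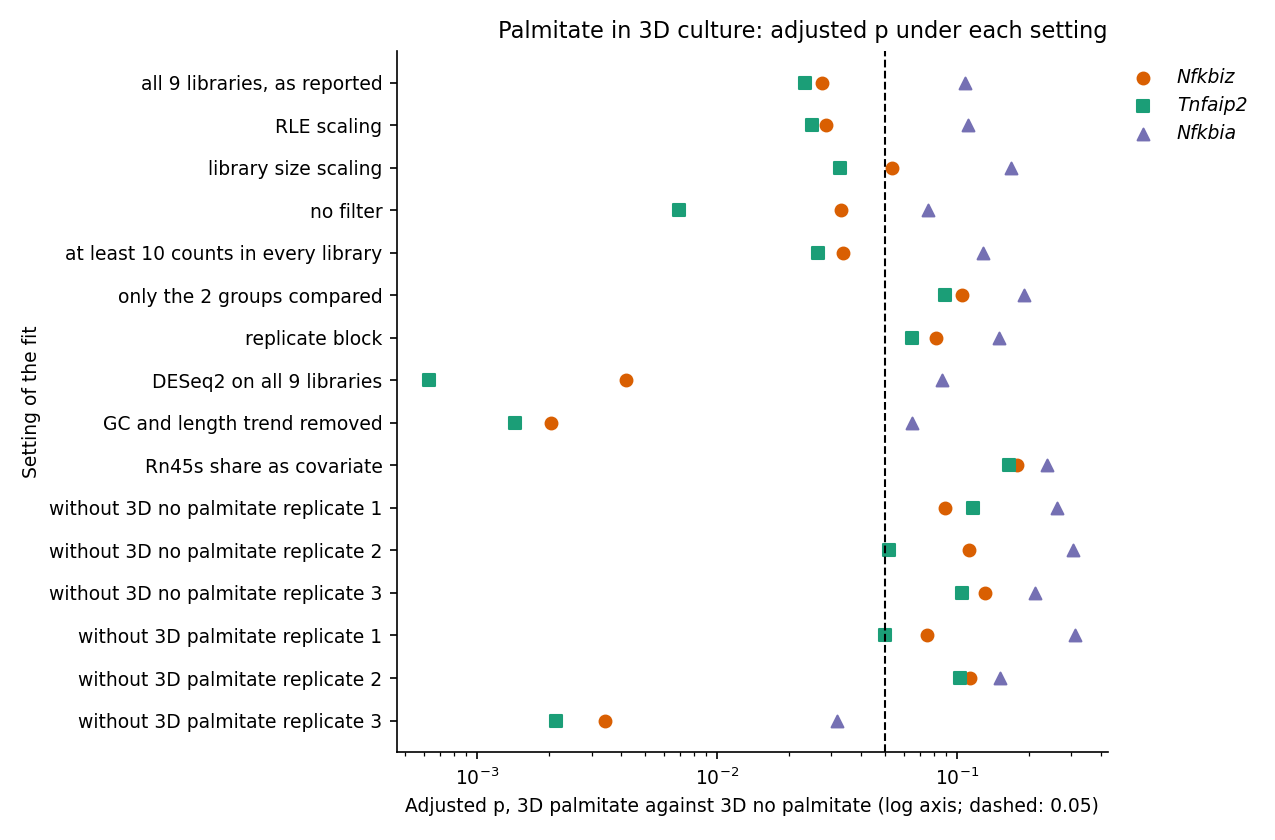
Adjusted p of palmitate against no palmitate in 3D (x axis, log scale, dashed line at 0.05) for Nfkbiz, Tnfaip2 and Nfkbia in the fit reported here (top) and in 15 alternatives (y axis). Nfkbiz lies left of the line in 6 alternatives, Tnfaip2 in 7 and Nfkbia in 1, the fit without 3D palmitate replicate 3.

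In the fits to all 9 libraries, none of the subunit genes was called with palmitate in edgeR's test or DESeq2, and none passed at an unadjusted p under 0.05. The log2 fold changes and 95% intervals were -0.02 (-0.15 to 0.11) for Nfkb1, 0.04 (-0.09 to 0.18) for Nfkb2, 0.06 (-0.10 to 0.23) for Rela, 0.14 (-0.11 to 0.39) for Relb and 0.11 (-0.26 to 0.47) for Rel. Tnfaip3 was at 0.03 (-0.13 to 0.19) and Icam1 at -0.19 (-0.62 to 0.24). For Nfkb1, Nfkb2 and Tnfaip3 these intervals leave room for changes of at most 0.19 in either direction, whereas for Rel and Icam1, with few counts, they are wide.

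Over the 3 conditions the 10 genes fell into different orders of levels. The comparison of 3D without palmitate and 2D with palmitate, in which culture form and palmitate cannot be told apart, called 8 of the 10 genes, 2 higher and 6 lower in 3D, against 72.1% of all genes, 36.2% higher and 35.9% lower. Nfkbiz was ordered from 3D without palmitate over 3D with palmitate to 2D, and of these steps the first was called and the second was not. Nfkbia had the same order, with only the second step called. Tnfaip2 ran from 2D over 3D without palmitate to 3D with palmitate, and both steps were called. The first, 3D without palmitate over 2D, had a log2 fold change of 0.28 (SE 0.0630, adjusted p = 0.00110 in edgeR's test), which was 0.17 and still called after removal of the GC and length trend, and the second lost its call in 8 of 15 alternatives. For Nfkb2, Relb, Tnfaip3 and Icam1 the 3D groups were neighbors that did not differ beyond their spread, both below 2D. Nfkb1 had both 3D groups above 2D, a call that removal of the GC and length trend ended (for 3D without palmitate over 2D, a log2 fold change of 0.07, adjusted p = 0.157 in edgeR's test). Rela and Rel had no neighbors that differed.

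The other genes of the pathway were taken as 5 lists, also chosen with earlier results of these data known. Of their 113 genes 111 passed the filter. They were first compared between 3D and 2D cultures that both received palmitate. Of the 5 other IκB genes, 4 were lower in 3D palmitate than in 2D, as Nfkbia was, against 33.9% of all genes, 0 were higher, and the list's median log2 fold change was -0.71 against 0.01 for all genes. These were Nfkbib (IκBβ), at 19.8 ± 1.63 CPM in 3D palmitate and 39.9 ± 3.03 CPM in 2D, Nfkbie (IκBε), at 25.6 ± 0.953 and 42.1 ± 4.20 CPM, Nfkbil1, at 21.1 ± 4.15 and 31.4 ± 2.45 CPM, and the nuclear IκB gene Nfkbid, at 2.28 ± 0.536 and 6.86 ± 0.999 CPM (SD, n = 3 each). Their log2 fold changes were -0.99, -0.71, -0.52 and -1.50 (adjusted p = 1.04e-07, 3.71e-06, 0.000750 and 4.00e-06 in edgeR's test). Bcl3, the remaining gene of the list, was at 0.04 (adjusted p = 0.820 in edgeR's test).

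Of 34 genes for kinases, adaptors and receptors upstream of IκB 11 were higher and 7 lower in 3D, with a median log2 fold change of 0.06. These 18 are a smaller part of the list than the 68.3% called among all genes. Il1r1, the interleukin-1 receptor, rose most clearly, from 14.3 ± 0.343 CPM in 2D to 68.3 ± 4.18 CPM in 3D palmitate (log2 fold change 2.24, SE 0.0706, adjusted p = 2.80e-12 in edgeR's test). Ikbkg (NEMO), the regulatory subunit of the IκB kinase, rose 2.83-fold, and the TNF receptor genes Tnfrsf1b and Tnfrsf1a 2.54-fold and 1.96-fold (adjusted p = 4.08e-10, 8.31e-10 and 2.07e-07 in edgeR's test).

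Of 15 genes for ubiquitin editing and feedback, the group to which A20 belongs, 3 were higher and 8 lower in 3D, near the 68.3% called among all genes, and the median was -0.25. The deubiquitinase gene Cyld, Tnip1 (ABIN1, a partner of A20) and Commd1 (a factor in p65 turnover) were lower by log2 fold changes of -0.66, -0.43 and -0.57 (adjusted p = 1.44e-05, 4.23e-05 and 1.61e-06 in edgeR's test), and that of Cyld was -1.06 after removal of the GC and length trend. Itch, Rnf11 and Tnip3 (ABIN3) were higher, Tnip3 with 3, 13 and 12 counts in the 2D libraries and 91, 49 and 31 counts in 3D palmitate, a log2 fold change of 3.12 (SE 0.265, adjusted p = 1.04e-07 in edgeR's test). Of 11 genes for the acetylation of p65, 3 were higher and 5 lower, again near the 68.3% of all genes, with a median of -0.15. The acetyltransferase genes Ep300 and Kat2b were higher in 3D by 0.74 and 0.64, and the acetyltransferase gene Kat2a and the deacetylase gene Hdac2 lower by log2 fold changes of -0.57 and -0.54 (adjusted p = 9.11e-07, 1.09e-05, 3.39e-05 and 6.04e-05 in edgeR's test). Ep300 stood at 0.25, still called, after removal of the GC and length trend.

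Of 48 other known targets 46 passed the filter, and 23 were higher and 14 lower in 3D, with a median of 0.20, where 34.5% of all genes were higher and 33.9% lower. Mmp3, a matrix metalloproteinase, was at 277 ± 32.2 CPM in 3D palmitate and 36.0 ± 2.57 CPM in 2D, and C3, a complement component, at 297 ± 53.1 and 53.9 ± 2.17 CPM (SD, n = 3 each). Cd44, an adhesion receptor, was 3.01-fold higher in 3D, and Csf1, the macrophage growth factor, 2.52-fold lower, at 146, 141 and 139 CPM in 3D palmitate and 359, 357 and 356 CPM in 2D. Their log2 fold changes were 2.93 for Mmp3, 2.45 for C3, 1.59 for Cd44 and -1.33 for Csf1 (adjusted p = 2.26e-12, 1.19e-10, 1.27e-10 and 6.37e-11 in edgeR's test).

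With palmitate in 3D, 0 of the 5 other IκB genes, 0 of the 34 kinases, adaptors and receptors, 0 of the 15 ubiquitin genes and 0 of the 11 acetylation genes were called by edgeR or DESeq2, and 0, 5, 2 and 0 of them passed at an unadjusted p under 0.05, as 17.3% of all genes did. Without 3D palmitate replicate 3 the counts called were 0, 6, 4 and 1, where 14.9% of all genes were called. By value, the genes with the smallest p in each list were Nfkbib at 0.13 and Nfkbil1 at 0.15, Il1r1 at -0.20 and the adaptor gene Myd88 at 0.23, Zc3h12a (Regnase-1, an RNase that degrades inflammatory transcripts) at 0.25 and Tnip3 at 0.46, and Kat2a at 0.15 and Kat2b at -0.13 on the log2 scale (adjusted p from 0.114 to 0.538 in edgeR's test). Kat2a, an acetyltransferase gene, stood at 99.7 ± 3.60 CPM without and 109.6 ± 16.2 CPM with palmitate (SD, n = 3 each). Its adjusted p was 0.393 in edgeR's test. The log2 fold change of Kat2a was 0.03 without 3D palmitate replicate 1 and 0.24 without replicate 3, where it was the acetylation gene called (adjusted p = 0.0202 in edgeR's test).

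Of the 46 other targets, 1 was called with palmitate. Il1a, the gene of interleukin-1α, stood at 71.0, 66.7 and 72.5 CPM without and 101, 109.8 and 125 CPM with palmitate in 3D, and at 70.8, 72.2 and 71.4 CPM in 2D. Only the 3D palmitate libraries were high, and the 3D libraries without palmitate overlapped those in 2D. The log2 fold change with palmitate was 0.66 (SE 0.0745, adjusted p = 0.000670 in edgeR's test), and the gene was called in 15 of 15 alternative fits. Among the 46 targets 39 were higher with palmitate by sign, or 84.8%, with a median log2 fold change of 0.18, where all genes had 52.2% and 0.01. The count was 38 of 46 with scaling by library size and 34 of 46 after removal of the GC and length trend. At an unadjusted p under 0.05 the count was 20, against 17.3% of all genes. Because the list was chosen with earlier results of these data known, these counts describe it and do not test it against all genes. The number called was 8 after removal of the GC and length trend (7.78% of all genes), 8 of 48 without the filter on low counts (3.33%), 12 of 47 without 3D palmitate replicate 3 (14.9%) and 3 in DESeq2 (3.17%).

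**Figure D5:**
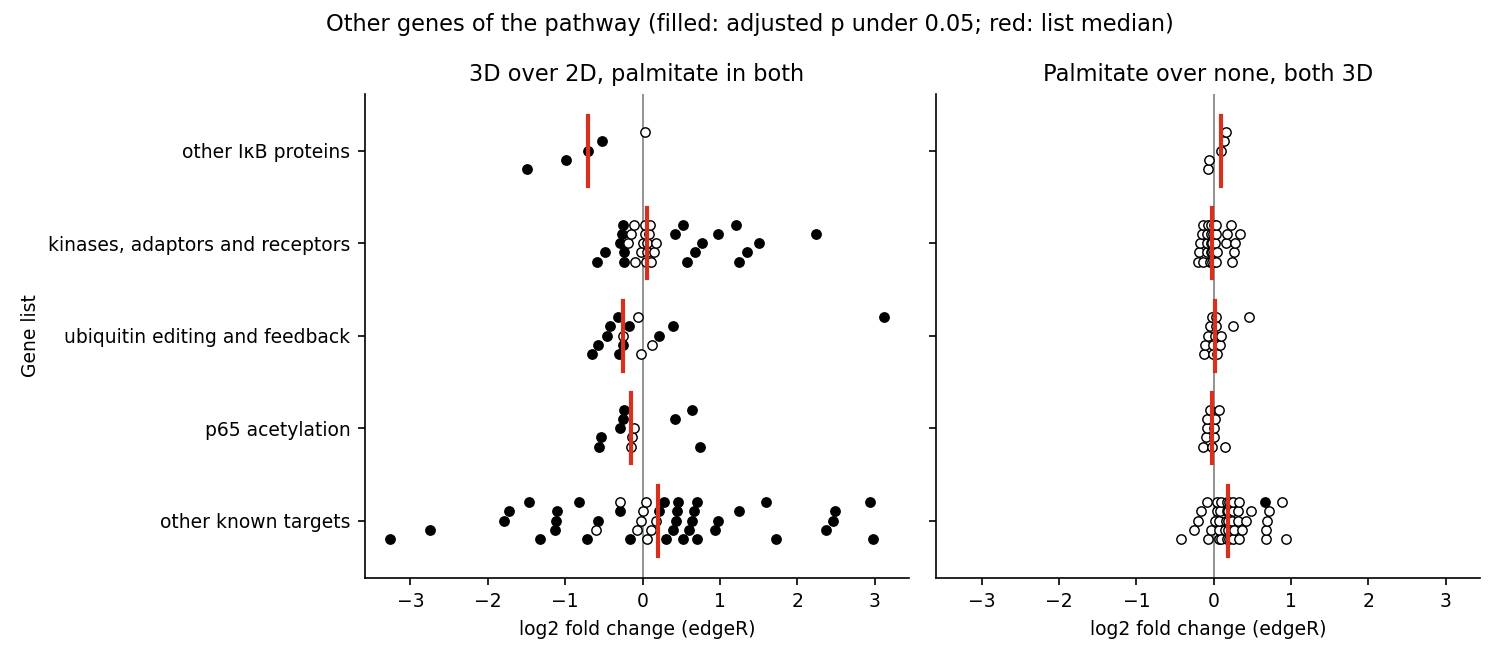
Log2 fold change (x axis) of each gene in 5 lists of the NF-κB pathway (y axis), for 3D over 2D with palmitate (left) and palmitate in 3D (right), with filled points for an adjusted p under 0.05 and a red bar for each list's median. The other IκB proteins sit at a median of -0.71 on the left, and on the right the 1 filled point is Il1a at 0.66.

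The genes with the most similar pattern over the 9 libraries, by the root mean square difference of centered log2 CPM, were named for 4 of the 10 genes. Closest to Nfkbiz were Map2k1 at 0.0417 and Abt1 at 0.0486, closest to Tnfaip2 were Sec24d at 0.0497 and Dpagt1 at 0.0511, closest to Nfkb2 were Mgme1 at 0.0235 and Actl6a at 0.0269, and closest to Rela were Bag6 at 0.0240 and Rps6ka4 at 0.0325. The patterns of the genes themselves had a root mean square size of 0.178 for Nfkbiz, 0.245 for Tnfaip2, 0.302 for Nfkb2 and 0.0907 for Rela. The points share libraries and depth, so likeness is a description of these libraries only.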

How the data were processed

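Raw read counts per gene were deposited by the authors for 9 RNA-seq libraries of 4T1 cells (poly(A), stranded kit, single-end). Per the labels and the study's methods, the authors used fastq-mcf to clean the reads and FastQC (0.11.9) to inspect them, and aligned them to GRCm38 with HISAT2 (2.1.0) and counted genes with HTSeq-count, without normalization. The annotation release and strand setting are not given in the sources used here, so how reads over bases shared with antisense genes were counted is not known. Groups and replicate numbers were taken from the labels. The table had 0 columns beyond these libraries.

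Tests were run with edgeR 4.0.16 in R 4.3.3 (filterByExpr, TMM, 1 quasi-likelihood fit over all 9 libraries with group as the only term, Benjamini-Hochberg over 12575 genes, called at an adjusted p under 0.05). No 2 libraries of a group were duplicates (chi-square per gene 3.89 to 19.7). CPM per kb used the longest transcript of GENCODE vM21, and log2 CPM a prior count of 2. Intervals used the fit's own degrees of freedom. Of the 24421 genes, 24027 had a length and GC content. Alternatives were RLE or library size scaling, no filter, a minimum of 10 counts per library, a fit of the 2 groups only, a replicate block, DESeq2 1.42.0, correction of the counts of each library for GC content and length (splines with 4 degrees of freedom), the Rn45s share (1.77% to 5.38%) as a covariate, and leaving out each library.

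The 10 genes and the pathway lists were chosen with earlier results of these data known. Named from each list were up to 4 called genes without overlap by p, or else the 2 with the smallest p as values, and the 2 nearest patterns of 4 genes. On simulated counts of 12424 genes with 2-fold changes, 188 of 199 changed genes were recovered with 13 false calls for 3D against 2D and 174 of 198 with 18 for palmitate. Changes as small as those of Nfkbiz (1.22-fold) and Tnfaip2 (1.24-fold) with palmitate were not simulated, so their recovery is not known. Nor was a contrast in which most genes change, as in 3D against 2D, where 68.3% were called. The simulation gave each gene the same spread in all groups, whereas the 3D palmitate libraries spread more than the others.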

Additional observations from a re-analysis of the deposited data

How the results depend on the processing

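Between 3D and 2D palmitate cultures, the number of the 10 genes called was 7 to 9 and that of all genes 7841 to 8998 over the 15 alternatives, within 1.5 times of the values reported, and so were those of 3D without palmitate against 2D. The palmitate comparison was not stable. Against 275 genes and 2 of the 10 genes, scaling by library size called 1 of the 10, and the share of higher genes went from 173 of 275 to 106 of 227. No filter called 617 genes, removal of the GC and length trend 978 (516 of them higher), only the 2 groups compared 77 genes and 0 of the 10, and the Rn45s covariate 44 genes and 0 of the 10. Leaving out 1 library gave 71 to 1901 genes and 0 to 3 of the 10. The highest count came without 3D palmitate replicate 3, the shallowest library, and included all 275 genes. In each fit with 0 of the 10 called, 3 passed at an unadjusted p under 0.05. The cause was not tested. With 1 library left out, a group of 2 remained and the fit pooled the spread over groups. A replicate block called 111 genes and 0 of the 10. No pairing by number was seen, which does not show that same-numbered libraries were prepared apart. Same-numbered libraries of different groups had correlations of their deviations from -0.24 to 0.15 (9 pairs), others from -0.17 to 0.28 (18 pairs). Of 9 libraries, 0 correlated best with their own number in both other groups. Depth limits Icam1 and Rel, with as few as 15 and 59 counts.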
